A study of Mus musculus with 32 samples.

Results

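The heart libraries of this series hold the uncapped RNA of whole mouse heart, and their gene-by-gene profile is set here against the profiles of 4 other organs. Of 32 libraries, 6 came from heart: 3 from Ftsj1_DF mice, deficient in Ftsj1, and 3 from WT mice. All were male and 4 months old, all stood in 1 labelled batch, and they formed 2 sets of brothers. Ftsj1 encodes an X-linked tRNA 2'-O-methyltransferase, and how its deficiency was made is not given in the sources used here. The same 6 mice gave the libraries named brain, kidney and liver, and spleen came from 8 other mice, 4 of each genotype. No treatment was given, and each library was made from the poly(A) RNA of 5 µg of total RNA, with an adapter ligated to uncapped 5' ends.

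The authors deposited 1 table per organ, with a mean normalized count per gene over both genotypes and no values per library. Each mean was divided by the sum of its table and is given as parts per 1000000 of that sum (ppm). The heart level of a gene was then compared with the median of the other 4 tables, for the 17758 of 55289 named genes with a mean of at least 100 in at least 1 table. The rule pools the genotypes and allows no replicate test between organs. An approximate standard error (SE) of each log2 ratio was taken from the deposited standard errors of the genotype comparison, and it covers the spread between libraries of an organ only. Genes at or past 4-fold were counted as higher or lower, and a pseudocount of 0.1 ppm was added to every level.

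A capped messenger loses its cap when the decapping enzyme removes it or when the body of the RNA is cut, and the 5' end that remains can be ligated and sequenced. This profile of uncapped ends, the degradome, follows both how much of a transcript a tissue holds and how it is turned over, so it is not a measure of intact messenger. Heart muscle is built of sarcomeres, in which myosin thick filaments pull on actin thin filaments when calcium leaves the sarcoplasmic reticulum. The beat is fuelled mainly by mitochondria that oxidise fatty acids, lactate and ketones, and phosphocreatine carries the energy to the filaments. Messengers made inside mitochondria are never given the cap of nuclear messengers.

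The label of the heart table was set against 4 heart markers, all of which also enter the ratios below. Myl3, the ventricular essential myosin light chain, had 37026 ppm in the heart table, against 71.3, 119.5, 127 and 81.5 in the brain-named, kidney, liver-named and spleen tables. Tnni3, the cardiac form of the inhibitory troponin subunit, had 30681 ppm in heart and 65.3, 107, 123 and 93.6 in the other tables. Myh6, the fast myosin heavy chain of the adult mouse heart, had 12407 ppm in heart and 25.5, 42.9, 57.1 and 29.6 in the other tables. The highest level of these 3 sarcomere genes in another table was 127 ppm. Slc25a4, the ADP/ATP carrier of muscle mitochondria, had 24623 ppm in heart and 75.7, 905, 2367 and 328 in the other tables. In these sentences and those that follow, 4 values in a row stand for the brain-named, kidney, liver-named and spleen tables, in that order. All 4 markers were at their highest in heart, and the ratio to the highest other table was smallest for Slc25a4, at 3.38 on the log2 scale.

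Some facts of the other tables bear on every comparison below. The brain-named table was led by albumin, a liver product, at 22.3% of its sum, and the table named for liver carried neuronal transcripts: Cpe, a peptide-processing enzyme, stood at 6515 ppm there and 26.8 in the brain-named one. Exchanging these 2 names would leave every median of the 4 tables as it is. Pancreatic acinar genes made up 15.3% of the spleen table and 0.0206% of the heart table. The summed means lay between 48536401 and 73405489 per table, with 50435521 in heart, and the depth of single libraries is not in the tables. In bulk tissue, fewer cells of a type and less RNA per cell cannot be told apart, and the same holds for more cells and more RNA.

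The uncapped RNA of heart was concentrated in few genes. The 10 genes with the largest shares made up 21.1% of the heart sum, against 36.9%, 5.75%, 4.86% and 28.6% of the sums of the other tables. In heart, 118 genes reached 50% of the sum, against 62, 612, 763 and 98 genes in the others. The leading genes of the brain-named and spleen tables were albumin and the pancreatic lipase Pnlip, both secreted proteins, whereas those of heart were proteins of the contractile apparatus and of mitochondria. Shares are not corrected for transcript length, so their order is not an order of molar levels.

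Of the 20 largest shares, 9 were nuclear genes that make or export ATP: Slc25a4, the ATP synthase subunits Atp5g3, Atp5c1, Atp5b and Atp5g1, the complex III core protein Uqcrc1, the respiratory chain subunits Ndufa4 and Ndufb10, and mitochondrial creatine kinase Ckmt2. Mybpc3, the cardiac myosin-binding protein C, had 24460.2 ppm in heart and 43.4, 70.4, 93.8 and 58.0 in the other tables. Ckmt2 had 16362 ppm in heart and 35.4, 57.6, 69.0 and 42.0 in the other tables. Cryab, a small heat-shock protein that protects desmin filaments, had 12012 ppm in heart and 32.1, 972, 277 and 64.6 in the other tables, so its next table was kidney. Aldoa, the aldolase of glycolysis, had 17338 ppm in heart and 197, 3459, 4694 and 1920.2 in the other tables. In 19 of these 20 genes heart was the highest table, and 16 were at least 4-fold above the median. The exception in the order of tables was the alpha-globin Hba-a1, with 6451 ppm in heart and 659, 1453, 653 and 41732 in the other tables, highest in spleen.

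**Figure D1:**
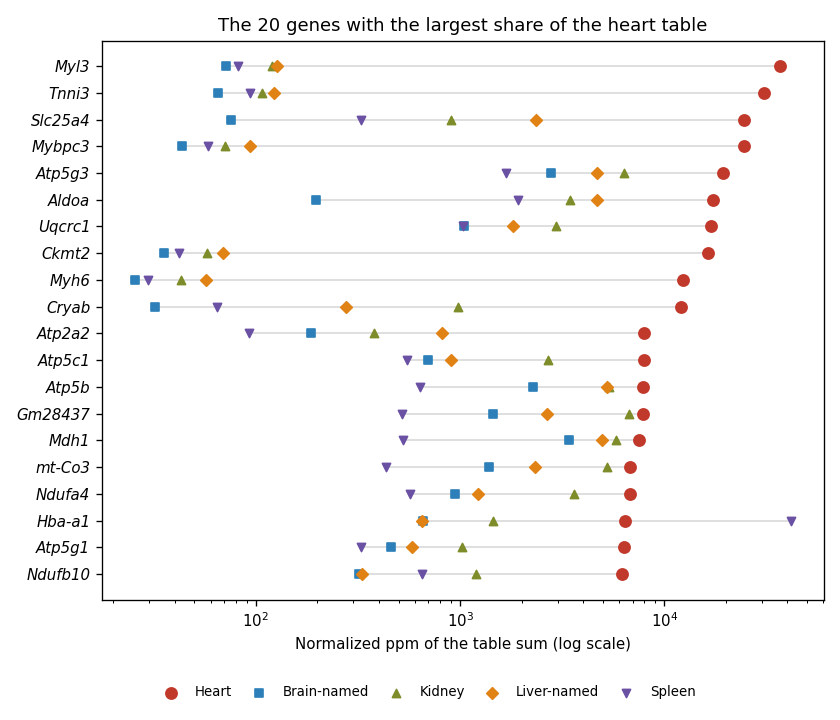
Levels of the 20 genes with the largest shares of the heart table, in ppm of each table's sum (log scale), with 1 symbol per table and no error bars. Heart lies furthest right in 19 rows, and spleen exceeds it for Hba-a1; Myl3, Tnni3, Mybpc3, Ckmt2 and Myh6 lie at 25.5 to 127 ppm in the other 4 tables.

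Over all 17758 genes, 962 were at least 4-fold higher in heart than the median of the other tables (5.42%) and 2404 at least 4-fold lower (13.5%). The 962 higher genes held 48.9% of the heart sum, and the median over all 17758 genes was a log2 ratio of -0.58. With levels rescaled by the median of ratios between tables, which moved that median by 0.40, the split was 1330 higher and 1632 lower. Log2 ratios below are therefore best read against -0.58 and not against 0. For ratios to the highest other table, the median of all genes was -1.99. Against the highest other table, heart stood at least 4-fold higher for 297 genes (1.67%), and it was simply the highest of the 5 for 1722 (9.70%). Of the 962 genes, 54 were at least 100-fold above the median. The next table was kidney for 423 of the 962, liver-named for 379, spleen for 120 and brain-named for 40. The approximate SE of the ratio had a median of 0.31 among the higher genes and 0.46 among the lower ones, on the log2 scale. At the edge of the call, Crhr2 and Rcsd1 were counted, with log2 ratios of 2.003 and 2.005, and Tesmin was not, with 1.997.

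**Figure D2:**
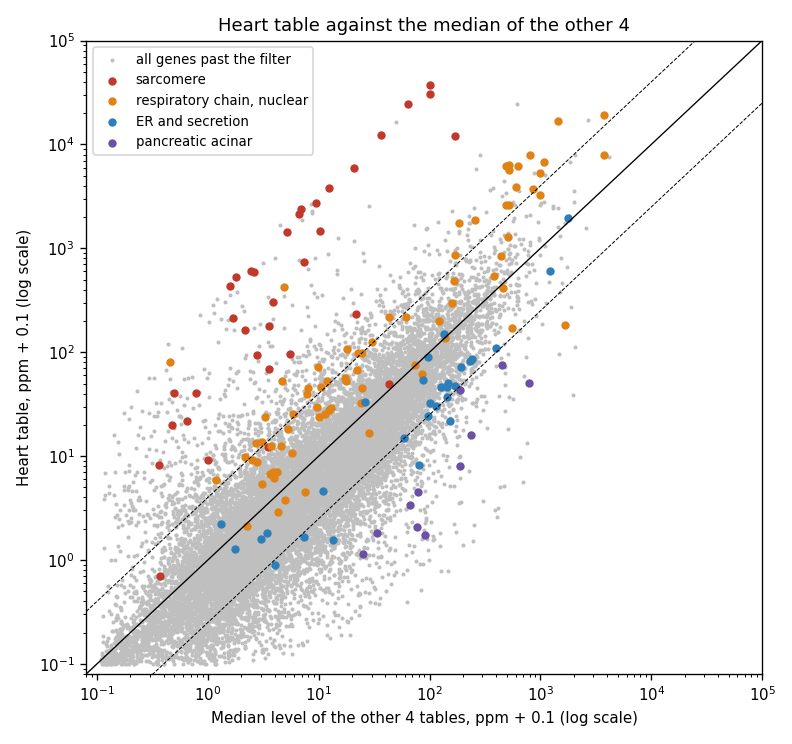
Each point is 1 of 17758 genes, with the median level of the other 4 tables on the horizontal axis and the heart level on the vertical one, both in ppm plus 0.1 (log scales). The solid line marks equality and the dashed lines 4-fold; sarcomere genes lie mostly above the band, respiratory chain genes mostly in its upper part or above it, genes of the endoplasmic reticulum (ER) and secretion mostly under equality, and pancreatic acinar genes below the band.

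The sarcomere gave the furthest separation of heart from the rest. All 13 genes listed for the thick filament were at least 4-fold higher, with a median log2 ratio of 7.95. They held 8.30% of the heart sum and 0.0168% to 0.0371% of the sums of the other tables. Mybpc3 had the highest ratio of the whole comparison, 8.57 ± 0.26 (SE), or 380.5-fold. Myom2, an M-band protein that ties thick filaments together, had 2409.7 ppm in heart and 4.59, 36.2, 7.65 and 6.05 in the other tables, with kidney next at 1.50% of the heart level. Titin (Ttn), the molecular spring, had 303 ppm in heart and 2.34, 5.26, 3.29 and 4.33 in the other tables. Myh7b, an ancestral myosin heavy chain, was the exception in the order of tables: it had 21.9 ppm in heart and 0.456, 0.637, 30.6 and 0.220 in the other tables, above heart in the liver-named table.

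Thin filament and Z-disc genes followed the same pattern. Of 24 listed, 21 passed the filter and 18 of these were at least 4-fold higher, with a median log2 ratio of 5.69 and none at least 4-fold lower. Csrp3, a LIM protein that senses stretch at the Z-disc, had 5950.1 ppm in heart and 60.5, 19.4, 22.2 and 15.0 in the other tables. These Z-disc proteins had their traces elsewhere in different tables: the brain-named one was next for Csrp3 and the liver-named one for Tcap. Tcap, which caps titin at the Z-disc, had 2141 ppm in heart and 4.58, 7.08, 19.96 and 6.08 in the other tables. Tnnt2, the cardiac tropomyosin-binding troponin, had 596 ppm in heart and 2.15, 2.90, 3.91 and 2.09 in the other tables. Nebl, the heart form of nebulin, stood closer to the liver-named table, with 69.0 ppm in heart and 2.60, 4.11, 21.9 and 2.76 in the other tables. Of the 3 members under 4-fold, Pdlim5, a Z-disc adaptor, had a log2 ratio of 0.18. The other 2 are skeletal forms: Tnni1, the slow skeletal inhibitory troponin, had 0.93 with 0.601 ppm in heart, and the skeletal actin Acta1 had 1.83 with 12.2 ppm.

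Among the 20 highest log2 ratios, between 8.04 and 8.57, 16 named genes belonged to the lists of sarcomere, calcium and energy genes, and the others included Nrap, Cav3 and Hspb7. Nrap, a scaffold of myofibril assembly, had 2648 ppm in heart and 4.69, 20.2, 10.7 and 6.31 in the other tables. Cav3, the caveolin of muscle membranes, had 228 ppm in heart and 0.584, 0.925, 1.38 and 0.549 in the other tables. Hspb7, a small heat-shock protein of heart and vessels, had 322 ppm in heart and 0.618, 1.12, 1.12 and 1.14 in the other tables. The approximate SE of these 20 ratios lay between 0.23 and 0.42, and it covers only the spread between libraries of an organ. These genes were chosen for the size of their ratios, so setting that size against the SE is not a test. The liver-named table was the next highest for 14 of the 20.

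The promoters of the 4 marker genes are shown because all 4 stood among the 20 largest shares of the heart table. RefSeq (GRCm38.p6, not the GRCm39 build of the tables) gives 300 bases for each, 250 before the annotated start and 50 after it, on the strand of the gene. Capitals mark matches, on both strands, to TATAAA, to CATTCC (the MCAT motif bound by TEAD factors), to GATAAG (bound by GATA factors), to the CArG box of serum response factor and to the MEF2 site.
Myh6 promoter, chr14:54966558-54966857 (- strand): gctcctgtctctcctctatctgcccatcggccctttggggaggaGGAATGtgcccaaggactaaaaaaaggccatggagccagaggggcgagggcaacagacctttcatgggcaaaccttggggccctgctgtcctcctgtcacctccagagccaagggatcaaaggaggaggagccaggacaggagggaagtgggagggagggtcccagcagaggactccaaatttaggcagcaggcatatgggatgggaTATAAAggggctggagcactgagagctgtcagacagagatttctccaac
Myl3 promoter, chr9:110763428-110763727 (+ strand): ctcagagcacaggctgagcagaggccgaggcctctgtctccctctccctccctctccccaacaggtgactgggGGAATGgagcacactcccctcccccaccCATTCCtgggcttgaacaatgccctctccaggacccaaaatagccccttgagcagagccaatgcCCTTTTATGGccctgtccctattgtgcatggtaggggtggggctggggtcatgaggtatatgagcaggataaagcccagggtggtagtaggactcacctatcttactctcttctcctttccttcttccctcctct
Tnni3 promoter, chr7:4522479-4522778 (- strand): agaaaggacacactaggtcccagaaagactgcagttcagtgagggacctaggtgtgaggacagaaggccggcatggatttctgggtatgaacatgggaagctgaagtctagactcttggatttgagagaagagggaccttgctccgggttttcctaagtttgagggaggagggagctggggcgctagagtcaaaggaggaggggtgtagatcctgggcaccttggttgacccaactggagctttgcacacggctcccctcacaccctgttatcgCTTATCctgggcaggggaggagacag
Slc25a4 promoter, chr8:46211013-46211312 (- strand): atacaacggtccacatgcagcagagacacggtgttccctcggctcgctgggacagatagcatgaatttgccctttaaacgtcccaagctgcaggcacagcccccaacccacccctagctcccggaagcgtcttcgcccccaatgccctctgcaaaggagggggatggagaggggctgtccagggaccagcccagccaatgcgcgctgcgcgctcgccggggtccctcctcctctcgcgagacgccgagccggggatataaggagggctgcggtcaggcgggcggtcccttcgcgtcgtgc
The capitals in Myh6 are a CATTCC match on the opposite strand and a TATAAA match that begins right after the annotated start. Myl3 holds a CATTCC match on each strand and a CArG box, Tnni3 a GATAAG match on the opposite strand, and Slc25a4 none of the 5. Of the 20 genes with the highest ratios, 17 have 19 such windows in the table. Among these, 5 windows held CATTCC (26.3%), 4 GATAAG (21.1%), 3 TATAAA (15.8%), 3 a MEF2 site (15.8%) and 2 a CArG box (10.5%). Among all 32851 windows, the shares were 14.7%, 7.44%, 13.6%, 3.19% and 1.63%, in the same order. Of the 20 genes with the lowest ratios, 13 have 15 windows, with shares of 26.7%, 13.3%, 26.7%, 0% and 0%. CATTCC was thus as frequent in the lowest set as in the highest, and TATAAA was more frequent there. With 19 and 15 windows, each share of these 2 sets rests on 5 matches or fewer. A match is a description of the letters, not evidence of binding.

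Calcium handling genes were mostly far higher in heart. Of 15 listed, 13 passed the filter, 9 were at least 4-fold higher, none lower, and the median log2 ratio was 4.81. Atp2a2, the SERCA2 pump that refills the sarcoplasmic reticulum, had 7952 ppm in heart and 187, 378, 815 and 93.0 in the other tables, so its RNA was present in every table. Casq2, the calcium buffer of the cardiac reticulum, had 1870.3 ppm in heart and 3.38, 6.80, 20.5 and 7.05 in the other tables. Ryr2, the release channel, had 441 ppm in heart and 4.61, 8.37, 42.7 and 8.34 in the other tables. Hrc, a histidine-rich calcium-binding protein of the same store, had 56.6 ppm in heart and 0.196, 0.198, 0.250 and 0.156 in the other tables. Members shared with other organs stood closer to the median: the kinase Camk2d had a log2 ratio of 1.49 and the calcium-binding S100a1 one of 1.22.

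Ion channel and gap junction genes stood above the median, and another table often reached or passed heart. Of 19 listed, all passed the filter, 12 were at least 4-fold higher and 1 lower, and the median log2 ratio was 2.42. Heart was the highest table for only 7, and against the highest other table the list median was -0.37, with all genes at -1.99. Kcnip2, a subunit of the transient outward potassium channel, had 114 ppm in heart and 1.17, 4.52, 98.3 and 2.62 in the other tables, nearly equal in the liver-named table. Kcnj11, the pore of the ATP-sensitive potassium channel, had 168 ppm in heart and 0.687, 2.04, 59.7 and 0.680 in the other tables. Gja1, which encodes connexin 43, had 87.3 ppm in heart and 3.71, 9.16, 120.1 and 19.8 in the other tables, above heart in the liver-named table. Gja5, the connexin of atria and conduction tissue, was the member at least 4-fold lower, with 1.68 ppm in heart and 25.8, 11.5, 2.73 and 1.59 in the other tables.

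Natriuretic peptides and other cardiac factors were listed together with Corin, a membrane protease that activates natriuretic peptides, and Npr3, their clearance receptor. Of 12 listed, 11 passed, 9 were at least 4-fold higher, Corin and Npr3 among them, and none lower, with a median log2 ratio of 5.66. Nppb, the brain natriuretic peptide of ventricles, had 288 ppm in heart and 0.739, 1.18, 1.45 and 0.855 in the other tables. Nppa, the atrial natriuretic peptide, had 13.5 ppm in heart and 0.0245, 0.0535, 0.0917 and 0.0532 in the other tables. Bmp10, a growth factor of atrial muscle, had 379 ppm in heart and 4.90, 1.53, 1.97 and 1.03 in the other tables. Ankrd1, a nuclear and sarcomeric stress-response protein placed in this list, had 2189 ppm in heart and 5.89, 17.0, 9.89 and 7.15 in the other tables. Fndc5, the precursor of irisin, had 803 ppm in heart and 2.78, 11.4, 265 and 6.97 in the other tables, with the liver-named table next.

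Genes typical of atria and of ventricles both stood out in the profile. Among 11 genes listed as atrial, all passed, 8 were at least 4-fold higher and 1 lower (Gja5), with a median log2 ratio of 4.33. Myl7, the atrial regulatory light chain, had 2735 ppm in heart and 6.78, 13.0, 11.0 and 7.74 in the other tables. Sln, the inhibitor of the calcium pump in atria, had 2309.9 ppm in heart and 5.15, 8.27, 13.6 and 9.03 in the other tables. Mybphl, an atrial relative of myosin-binding protein H, had 32.4 ppm in heart and 0.0757, 0.233, 0.255 and 0.308 in the other tables. Among 8 genes listed as ventricular, 7 passed and 6 were at least 4-fold higher, with a median of 6.49. Myl2, the ventricular regulatory light chain, had 526 ppm in heart and 1.27, 1.87, 2.36 and 1.51 in the other tables. Irx4, a transcription factor of ventricles, had 36.0 ppm in heart and 0.196, 0.321, 1.51 and 0.770 in the other tables.

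Transcription factors of heart had more moderate ratios. Of 22 listed, 17 passed the filter, 8 were at least 4-fold higher and none lower, with a median log2 ratio of 1.78. Smyd1, a muscle-specific methyltransferase, had 53.0 ppm in heart and 1.80, 1.04, 2.62 and 1.40 in the other tables. Myocd, the coactivator of serum response factor, had 37.8 ppm in heart and 0.655, 1.29, 1.87 and 1.39 in the other tables. Gata4 had 15.7 ppm in heart and 4.58, 1.81, 3.60 and 1.61 in the other tables. Tead1, which binds the MCAT motif, had 92.8 ppm in heart and 9.03, 75.9, 37.7 and 16.4 in the other tables, and Mef2d had 28.7 ppm in heart and 17.9, 22.1, 50.3 and 35.8 in the other tables, within the range of the other tables. Nkx2-5, Tbx5 and Hand2, core factors of heart development, did not pass the filter, with 1.36, 1.71 and 0.0400 ppm in heart.

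The respiratory chain was the other large part of the heart profile. The 79 nuclear genes listed for complexes I to V held 11.6% of the heart sum, against 1.85%, 4.82%, 2.70% and 1.01% of the other sums. Kidney, another organ rich in mitochondria, was next. For complex I, 36 of 37 listed genes passed, 11 were at least 4-fold higher and none lower, with a median log2 ratio of 1.49. For complexes II to V, 40 of 42 passed, 24 were at least 4-fold higher and 1 lower, with a median of 2.12. Against the highest other table, 3 and 6 genes of these 2 lists were at least 4-fold higher.

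Among single members, Uqcrc1 had 16982 ppm in heart and 1045, 2952, 1813 and 1034 in the other tables. Atp5g1, a gene for the c-ring of ATP synthase, had 6339.6 ppm in heart and 461, 1017, 584 and 328 in the other tables. In both of these genes kidney was the next table. Ndufb10, a membrane-arm subunit of complex I, had 6226 ppm in heart and 322, 1191, 329 and 654 in the other tables. Atp5b, the catalytic beta subunit of ATP synthase, was more even, with 7899 ppm in heart and 2263, 5348, 5217 and 634 in the other tables. Cox8a, a ubiquitous subunit of complex IV, was the member at least 4-fold lower, with 181 ppm in heart and 1325, 2252, 2017 and 145 in the other tables and a log2 ratio of -3.20 ± 0.37 (SE). The gene model Gm28437, unmatched in RefSeq, was also among the 20 largest shares, with 7873 ppm in heart and 1452, 6685, 2661 and 519.5 in the other tables. Near-identical copies of a gene can split its reads in counting, so values of pseudogenes, gene models and their parent genes are uncertain.

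The 13 mitochondrially encoded messengers held 1.04% of the heart sum, against 0.224%, 0.804%, 0.289% and 0.0673% elsewhere. All 13 passed, 9 were at least 4-fold higher and none lower, with a median log2 ratio of 2.58, and heart was the highest table for 10. mt-Co3, a complex IV subunit, had 6809 ppm in heart and 1389, 5218, 2319.5 and 434 in the other tables. mt-Atp6, a subunit of ATP synthase, had 720.0 ppm in heart and 57.7, 296, 76.5 and 26.7 in the other tables. mt-Nd6, the messenger on the other mitochondrial strand, stood apart with 118 ppm in heart and 257, 129, 23.2 and 11.0 in the other tables, highest in the brain-named table. The 2 mitochondrial ribosomal RNAs had log2 ratios of 0.62 and 1.35. Of 22 mitochondrial tRNAs, 18 passed, 2 were at least 4-fold higher, and the median was 1.25.

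Where a protein exists in a muscle or heart form and another form, the 2 forms usually parted. In 18 of 21 listed pairs both forms had counts, and in 17 of the 18 the muscle or heart form had the higher log2 ratio, with a median difference of 6.16. The 17 include Myh6 and Myh7, Myl2 and Myl7, and Camk2d and Camk2a, whose ratios lay close together. In the myosin pairs both forms are cardiac, so which one counted as the muscle or heart form was a choice. Cox8b, the form of the complex IV subunit in heart and skeletal muscle, had 79.8 ppm in heart and 0.182, 2.16, 0.385 and 0.326 in the other tables, and its log2 ratio exceeded that of Cox8a by 10.66. Ckm, cytosolic muscle creatine kinase, had 1687 ppm in heart and 2.80, 5.03, 5.41 and 3.80 in the other tables. Its brain-type counterpart Ckb had 160.0 ppm in heart and 27.2, 324, 4657 and 147 in the other tables. Eef1a2, the translation elongation factor of muscle and neurons, had 57.2 ppm in heart and 0.528, 0.718, 50.9 and 0.464 in the other tables. Eef1a1, the form of most other cells, had 460.4 ppm in heart and 1199, 1648, 1467 and 2103 in the other tables, lowest in heart. For these 3 pairs the muscle form was highest in heart and the other form highest in another table. Pgam2 had 30.8 ppm in heart and 0.231, 2.61, 0.781 and 0.204 in the other tables, and Pgam1 had 23.5 ppm in heart and 59.6, 158, 304 and 19.8 in the other tables; both are phosphoglycerate mutases. Slc2a4, the insulin-responsive glucose transporter, had 1259 ppm in heart and 3.31, 123, 10.7 and 18.7 in the other tables.

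The pairs that did not part were of different kinds. Myh6 and Myh7, the fast and slow cardiac myosins, had log2 ratios of 8.42 and 7.95, and Myl2 and Myl7 had 8.20 and 8.17, and both forms of each pair are made in heart. Camk2d and Camk2a had 1.49 and 1.30. The pair in the opposite order was lactate dehydrogenase: Ldhb, the subunit typical of heart, had 43.7 ppm in heart and 2.55, 183, 235 and 1.98 in the other tables, and Ldha, typical of skeletal muscle, had 2529.6 ppm in heart and 1869, 1555, 1025 and 879.8 in the other tables. In the 3 pairs without both forms, Cox6a2, Cpt1b and Actc1 were listed at 0 in every table.

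**Figure D3:**
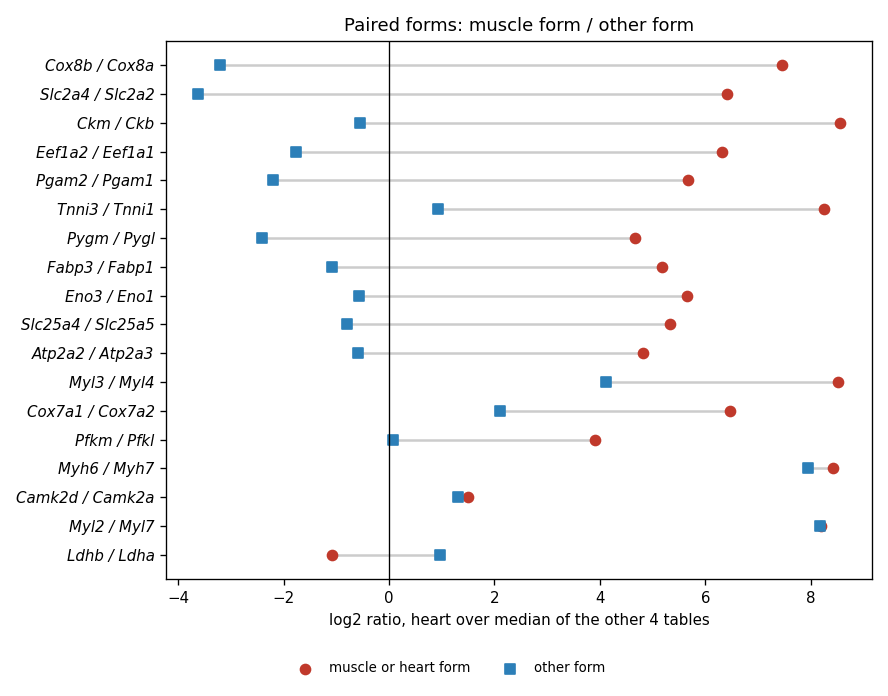
Log2 ratio of heart over the median of the other 4 tables for the 18 pairs of forms with counts (muscle or heart form / other form), ordered by their difference. The muscle or heart form lies to the right in 17 rows, by 10.66 for Cox8b and Cox8a, and to the left for Ldhb and Ldha.

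Genes of fuel use were higher in heart in part. In the tricarboxylic acid cycle, 20 of 21 listed genes passed, 9 were at least 4-fold higher and none lower, with a median log2 ratio of 1.75. Ogdh, a subunit of the oxoglutarate dehydrogenase complex, had 2248 ppm in heart and 172, 719, 477 and 158 in the other tables. Sucla2, a subunit of ATP-forming succinyl-CoA synthetase, had 2032 ppm in heart and 169, 597, 286 and 105 in the other tables. For uptake and oxidation of fatty acids, 24 of 25 passed, 10 were at least 4-fold higher and 2 lower, with a median of 1.88. Lpl, the lipase that frees fatty acids at the vessel wall, had 2582 ppm in heart and 21.9, 545, 17.3 and 35.2 in the other tables. Hadha, the trifunctional enzyme of beta-oxidation, had 3683 ppm in heart and 509.6, 639, 182 and 195 in the other tables. Fabp3, the heart fatty acid-binding protein, had 37.2 ppm in heart and 0.166, 1.57, 2.50 and 0.281 in the other tables. The lower members were Cpt1a, the carnitine palmitoyltransferase of liver, with 5.22 ppm in heart and 78.0, 82.2, 7.87 and 15.8 in the other tables, and Etfb, an electron carrier, with 0.693 ppm in heart and 16.01, 5.15, 7.69 and 0.242 in the other tables. Against the highest other table the median of the fatty acid list was -0.14, with all genes at -1.99. The brain-named table, which holds liver transcripts, or kidney stood above heart for several members.

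Glucose and ketone genes were less one-sided. Of 25 glucose genes, 23 passed, 9 were at least 4-fold higher and 1 lower, with a median log2 ratio of 0.91. Pfkm, muscle phosphofructokinase, had 364 ppm in heart and 9.55, 38.5, 288 and 8.02 in the other tables. Hk2, the insulin-regulated hexokinase, had 43.9 ppm in heart and 1.46, 3.53, 2.09 and 4.50 in the other tables. Pkm, pyruvate kinase of muscle and many other cells, had 312 ppm in heart and 17.4, 103, 1099 and 30.0 in the other tables, highest in the liver-named table. Oxct1, the enzyme that lets a tissue burn ketones, was the ketone gene of 3 past 4-fold and had 562 ppm in heart and 6.43, 1143, 202 and 37.7 in the other tables, highest in kidney and at 1.14% of the heart level in the brain-named table. For the shuttling of energy and oxygen, all 15 listed genes passed and 6 were at least 4-fold higher, among them Ckm, Ckmt2, Slc25a4 and myoglobin. Myoglobin (Mb), the oxygen store of muscle, had 209.5 ppm in heart and 0.454, 1.30, 2.61 and 1.11 in the other tables.

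Lists that serve all cells were read against the 5.42% of all genes at least 4-fold higher and the 13.5% lower. Of 71 cytosolic ribosomal protein genes that passed, out of 79 listed, 1 was at least 4-fold higher and 5 lower, with a median log2 ratio of 0.0050, and heart was the highest table for none of them. Rplp1, an acidic stalk protein, had 2109 ppm in heart and 343, 758, 853 and 6095 in the other tables, highest in spleen. Of 62 mitochondrial ribosomal protein genes that passed, out of 72, 4 were higher and 3 lower, with a median of 0.55. Genes of the endoplasmic reticulum and secretion stood below the median of all genes: none of 29 was at least 4-fold higher and 6 were lower, with a median of -1.48. Hspa5, the main chaperone of that compartment, had 110.5 ppm in heart and 852, 536, 263 and 127 in the other tables, and Rpn2, a subunit of the oligosaccharyltransferase, had 21.8 ppm in heart and 222, 178, 126 and 38.4 in the other tables. The factors that remove caps or degrade uncapped RNA also stood below it, with none of 20 that passed at least 4-fold higher, 2 lower and a median of -1.02. Dcp2, the decapping enzyme, had 4.36 ppm in heart and 5.62, 13.7, 15.6 and 8.37 in the other tables, and Xrn1, the exonuclease that degrades uncapped RNA from its 5' end, had 6.17 ppm in heart and 5.00, 13.6, 10.8 and 10.1 in the other tables.

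**Figure D4:**
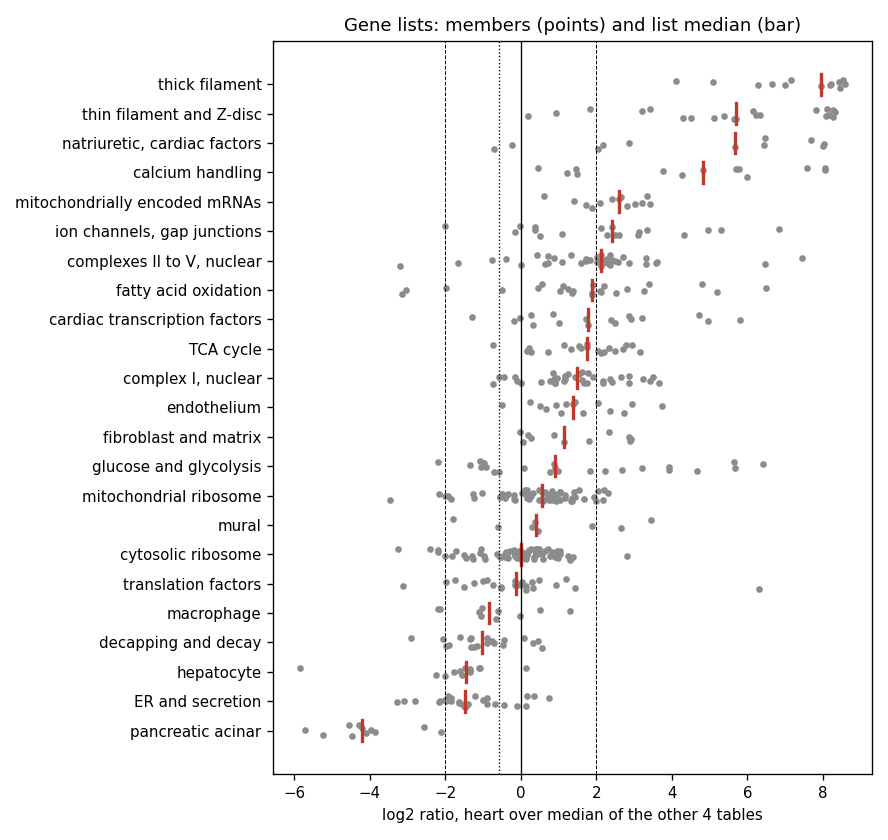
Log2 ratio of heart over the median of the other 4 tables for the members of 23 gene lists that passed the filter (grey points) with the list median (red bar). The dotted line marks the median of all genes, -0.58, and the dashed lines 4-fold; the list medians run from -4.21 for pancreatic acinar genes to 7.95 for the thick filament.

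Cells other than heart muscle also left their marks. Counts in this paragraph and the next are best read against all genes, of which 5.42% were at least 4-fold higher and 13.5% lower. Of 15 endothelial genes, 5 were at least 4-fold higher and none lower, with a median log2 ratio of 1.39. Their sum was 1403 ppm in heart and 398, 1399, 442 and 472 in the other tables, nearly equal in kidney. Heart was the highest table for 6 of them, and against the highest other table the list median was -0.25, with all genes at -1.99. Vwf, the clotting factor stored in endothelium, had 163 ppm in heart and 12.8, 17.4, 32.03 and 47.3 in the other tables. Fabp4, a fatty acid-binding protein of capillaries and fat, had 36.7 ppm in heart and 0.359, 24.7, 0.243 and 4.97 in the other tables. Of 11 fibroblast and matrix genes that passed, 4 were higher and none lower, with a median of 1.15. Dcn, the collagen-binding proteoglycan decorin, had 1752 ppm in heart and 332, 435, 121 and 131 in the other tables, whereas Col1a2 had 45.3 ppm in heart and 31.8, 110.1, 33.8 and 59.3 in the other tables. Of 8 mural genes, 2 were higher: Rgs5, a pericyte marker, with 152 ppm in heart and 11.9, 46.0, 36.2 and 2.79 in the other tables, and Kcnj8, a potassium channel of the same cells, with 37.7 ppm in heart and 0.859, 5.30, 1.48 and 13.3 in the other tables. Against the highest other table, the median of the mural list was -0.50, with all genes at -1.99. None of 10 macrophage genes was at least 4-fold higher and 2 were lower, the complement genes C1qb and C1qc, with log2 ratios of -2.15 and -2.19.

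Markers of tissues that do not belong to heart muscle were measured beside these results. The 14 hepatocyte genes summed to 1302 ppm in heart, against 342614, 2508, 4874 and 3233 in the other tables, and the 11 kidney tubule genes to 31.9, against 37.9, 13508, 44.1 and 43.6. Globins and other red cell genes summed to 11937 ppm in heart and 81691 in spleen. Of 6 that passed, 3 were at least 4-fold above the median and 1 at least 4-fold below it. None of 12 neuronal genes that passed was at least 4-fold higher and 2 were lower (16.7%). The same counts held for 8 T cell genes (25% lower), with 1 of 6 B cell genes lower (16.7%). In lists this small, such counts lie near the share of all genes that were lower, 13.5%, and set none of these cell types apart. Of 7 lung and airway genes, 5 did not pass and 2 were at least 4-fold higher: Scgb3a1, a secretoglobin of the airway, and Hopx, which is also in the list of cardiac transcription factors. Of 8 genes of nerve sheath and autonomic nerves, 7 passed and 1 was higher, Dbh, an enzyme of noradrenaline synthesis. Of 6 genes of the mesothelium, 1 was higher and 2 were lower. Of 14 skeletal muscle genes, 9 passed, 5 were at least 4-fold higher and 2 lower (22.2%). Of the higher ones, Casq1, the skeletal form of calsequestrin, had 8.20 ppm in heart, and Myh4, a fast skeletal myosin, had 3.24. Pvalb, a calcium buffer of fast muscle and neurons, was a lower one, with a log2 ratio of -4.28. Of 8 fat cell genes, 7 passed and 2 were at least 4-fold higher, and Cidea, a lipid droplet protein, had 132 ppm in heart and 1.47, 193, 22.7 and 3.07 in the other tables. The source of these levels was not tested.

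The genes furthest below the other organs included enzymes of liver and kidney metabolism. Against the lowest other table, 195 of all genes (1.10%) stood at least 4-fold lower in heart. Since the median of 4 tables is the mean of the middle 2, a gene needs a high level in at least 2 other organs to stand far below it. Of the 20 lowest log2 ratios, between -7.54 and -6.40, 17 had the brain-named and the kidney table as their 2 highest, and the brain-named table holds liver transcripts. G6pc, the last step of glucose release, had 1.44 ppm in heart and 489, 654, 4.46 and 3.58 in the other tables. Fbp1, a key enzyme of gluconeogenesis, had 5.55 ppm in heart and 1379, 1970.0, 11.8 and 10.5 in the other tables. Both act in glucose production by liver and kidney. Ass1, an enzyme of the urea cycle and of arginine synthesis, had 4.99 ppm in heart and 791, 1001, 27.5 and 67.7 in the other tables. Slc27a2, an acyl-CoA synthetase for very long fatty acids, had 2.93 ppm in heart and 771, 1668, 11.2 and 6.46 in the other tables. Outside that pattern, Car2, a cytosolic carbonic anhydrase, had 5.03 ppm in heart and 11.1, 455, 485 and 492 in the other tables, and Calb1, the calcium buffer calbindin of kidney tubule and neurons, had 2.08 ppm in heart and 3.10, 892, 502 and 4.56 in the other tables. The approximate SE of these 20 ratios lay between 0.21 and 0.68.

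Non-coding loci of heart muscle were part of the higher genes. RefSeq classes were found for 17001 of the 17758 genes, and at least 4-fold higher were 689 of 14410 protein-coding genes (4.78%), 103 of 1455 pseudogenes (7.08%), 92 of 984 long non-coding RNAs (9.35%) and 2 of 10 microRNA genes. Mir133a-2, a locus of the muscle microRNA miR-133a, had 238 ppm in heart and 0.503, 1.62, 1.17 and 0.914 in the other tables. Mir1a-1, its partner in the same cluster, had 25.7 ppm in heart and 0.0577, 0.0985, 0.0905 and 0.0524 in the other tables. The libraries were made from poly(A) RNA, and the tables do not say which RNA of the locus gave these counts. RefSeq gives for Mir1a-1 the mature 5p arm below, with the seed of that arm (bases 2 to 8) in capitals. The other mature arm was not in the sources used here, so its seed is not shown.
mmu-miR-1a-1-5p, chr2:180389057-180389079 (+ strand, GRCm38.p6): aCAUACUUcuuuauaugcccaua
The other 7 listed muscle microRNA loci were at 0 in every table. Among long non-coding RNAs, H19 had 15.5 ppm in heart and 0.299, 0.0349, 0.286 and 0.134 in the other tables, and Mhrt, which is antisense to Myh7, had 4.16 ppm in heart and 0.0161, 0.00631, 0.0353 and 0.0222 in the other tables. Counting by strand is not stated, so reads of Mhrt and Myh7, or of mt-Nd6 and the strand opposite it, cannot be told apart.

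Heart-typical transcripts were found at a small level in every other table. Genes were taken as typical of heart with a heart mean of at least 5000 and a level at least 32-fold above the 3 tables other than the one examined. In the brain-named table, 43 such genes had a median of 0.242% of their heart level, with the 10th and 90th percentiles at 0.191% and 0.785%. In kidney, 54 genes had a median of 0.559%, in the liver-named one 0.657% was the median of 53 genes, and in spleen 49 genes had 0.377%. The lowest value of any such gene in the 4 tables was 0.166%. Myl3 stood at 0.192%, 0.323%, 0.344% and 0.220% of its heart level, and Tnni3 at 0.213%, 0.349%, 0.401% and 0.305%. Genes far above this level included Lpl and Cox7a1 in kidney, at 21.1% and 11.7%, and Kcnj11 and Fndc5 in the liver-named table, at 35.5% and 33.0%. In the reverse direction, genes typical of the brain-named, kidney, liver-named and spleen tables had medians of 0.239%, 0.157%, 0.719% and 0.671% of their level in heart. The ratios of the sarcomere genes above therefore depend on this low level in the other tables, and its source was not tested.

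**Figure D5:**
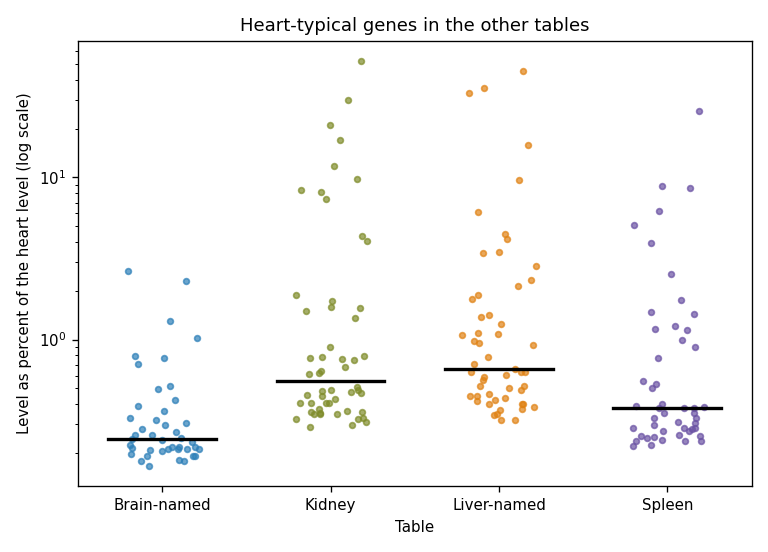
Level of heart-typical genes in each other table, as a percent of the heart level (log scale); each point is a gene and the black bar the median. The medians are 0.242%, 0.559%, 0.657% and 0.377% in the brain-named, kidney, liver-named and spleen tables.

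Some defining heart genes were listed at 0 in all 5 tables. Of 173 genes in the heart, energy and fuel lists, this held for 6: cardiac actin (Actc1), cardiac troponin C (Tnnc1), phospholamban (Pln), Xirp1, Cox6a2 and Cpt1b. An exact 0 for genes that every heart muscle cell uses can be a failed estimate, so no absence is read from it. The RefSeq span of Pln, Cox6a2 and Cpt1b overlaps another gene, and that of the other 3 does not. Over all protein-coding genes, 8.98% of 8433 with such an overlap and 5.47% of 12785 without it were at 0 in every table. Genes used by all cells were among those at or near 0: B2m was listed at 0, and Gapdh had 0.0910 ppm in heart and 0.567, 0.296, 0.721 and 0.0983 in the other tables.

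The genotype comparison was not used to choose these genes, and it was read for them in the authors' deposited table for heart. Its direction is not stated, and positive values are taken as higher in Ftsj1_DF hearts because Ftsj1 was negative in all 5 tables. Ftsj1 itself had a log2 fold change of -1.72 ± 1.03 (SE) in the authors' deposited table, with an adjusted p of 0.594 by DESeq2, so it did not pass 0.05 in heart. Of the 962 heart-high genes, 950 had an adjusted p in the authors' deposited table. Among these, 4 were higher and 20 lower in Ftsj1_DF hearts, 0.421% and 2.11%, against 0.418% and 0.771% of all 19847 genes tested. The median SE was 0.35 for the heart-high genes and 0.54 for all tested, and the part of this difference in the shares was not tested.

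By DESeq2, none of the 13 thick filament genes or the 21 thin filament and Z-disc genes with an adjusted p passed there. At an unadjusted p under 0.05, 0 of both lists passed, against 10.6% of all 19847 genes tested, and the median log2 fold changes of the authors' deposited table were 0.0042 and -0.0041. The authors' deposited table gave Myh6 a log2 fold change of -0.14 ± 0.25 (SE) and Tnni3 one of 0.00 ± 0.23. Nppb and Myh7, which heart muscle makes more of under load, had -0.66 ± 0.44 and -0.77 ± 0.48 in the authors' deposited table, with adjusted p of 0.666 and 0.627 by DESeq2, and did not pass. None of the 36 genes of complex I, the 40 of complexes II to V, the 24 of fatty acid use or the 21 of the citric acid cycle passed by DESeq2. At an unadjusted p under 0.05 there were 2, 2, 0 and 0, all of them higher in Ftsj1_DF hearts, against 4.76% of all tested genes that were higher at that threshold. Mitochondrially encoded genes did hold calls at an adjusted p under 0.05 by DESeq2. Of those with an adjusted p, 5 of 21 tRNAs and 1 of 13 messengers were lower in Ftsj1_DF hearts, against 0.771% of all tested genes. None was higher, and neither of the 2 ribosomal RNAs passed. The median log2 fold changes in the authors' deposited table were -1.15 for the tRNAs and -0.60 for the messengers. The 297 genes at least 4-fold above the highest other table held 1 call, Pdk4, higher in Ftsj1_DF hearts, among 296 with an adjusted p. These shares, 0.338% higher and 0% lower, stand beside 0.418% and 0.771% of all tested genes.

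Mylk4, a kinase of the myosin light chain kinase family, was higher in Ftsj1_DF hearts, with a log2 fold change of 2.77 ± 0.37 (SE) and an adjusted p of 2.52e-09 in the authors' deposited table (DESeq2). Pdk4, which blocks pyruvate oxidation when fatty acids are burned, was also higher, with 1.83 ± 0.49 and an adjusted p of 0.0236 in the authors' deposited table. The genotype means implied by these values were 30.5 and 4.88 ppm for Mylk4 in Ftsj1_DF and WT hearts, and 15.1 and 4.63 for Pdk4. The other 2 higher genes, Gm47391 and Gm32492, were gene models. Among the lower genes, Ube2v2, a ubiquitin-conjugating enzyme variant, had -2.09 ± 0.43 with an adjusted p of 0.00128 in the authors' deposited table. Nrg4, a growth factor of the neuregulin family, had -1.71 ± 0.42 and 0.0105, and Diaph2, a formin that nucleates actin filaments, had -1.61 ± 0.41 and 0.0172, both from the authors' deposited table. Necab1, Gnrhr and Crabp1 lay between -2.46 and -1.76 there. Kidney was the next table for Ube2v2, Nrg4, Diaph2, Gnrhr and Crabp1, at 24.1% to 52.8% of the heart level. They are a part of the 20 lower genes, and the next tables of the others, Necab1 among them, are not given here. Among all 962 heart-high genes, kidney was the next table for 423.

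None of the fat cell markers passed the same comparison. All 7 fat cell genes with an adjusted p were negative in the authors' deposited table, with an unadjusted p under 0.05 by DESeq2, against 5.87% of all tested genes that were lower at that threshold, and the lowest adjusted p was 0.144. Retn, the fat cell hormone resistin, had implied means of 60.4 ppm in Ftsj1_DF hearts and 305 ppm in WT hearts. The 7 implied means summed to 168 ppm in Ftsj1_DF hearts and 527 ppm in WT hearts, and log2 fold changes in the authors' deposited table lay between -2.36 and -0.71. Values of the single hearts are not in the tables, so the spread of this sum over mice cannot be given. Its part in the calls above was not tested.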

How the data were processed

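Degradome sequencing reads of uncapped poly(A) RNA were processed by the authors with featureCounts, Subread 2.0.3 and DESeq2 on GRCm39, per the submitters' processing notes, which give no version of DESeq2 and no roles of these tools. The deposited tables hold, per organ and gene, a mean normalized count (a signal scaled by the authors' size factors, over both genotypes), a log2 fold change with its standard error, a Wald score, and a p-value with its Benjamini-Hochberg adjusted value, all made by the authors. Counts per library are not in these tables, so the depth behind each library is unknown and no count test was run.

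Each mean was divided by the sum of its table and scaled to parts per 1000000 (ppm). Log2 ratios of heart over the median of the other 4 tables used a pseudocount of 0.1 ppm, for genes with a mean of at least 100 in at least 1 table. The SE of a mean was taken as the deposited SE of the genotype fold change divided by 2, and the SE of a ratio combined heart and the middle 2 of the other tables. The SE of a ratio treats the tables as independent, although the same 6 mice gave the heart, brain-named, kidney and liver-named libraries. Nothing in the labels says that libraries differ in batch, and p-values of the authors measure the spread between 3 mice of each genotype, of which some are brothers. Python 3.11.15, numpy 2.4.6, pandas 2.3.3 and matplotlib 3.10.9 were used, and the computation of ratios and calls was tested on simulated data.

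The members and gene lists were chosen with earlier results of these data known. Named genes are the markers, the 20 largest heart shares, the 20 highest and 20 lowest ratios, the 20 highest ratios over the highest other table, up to 6 members of each list by heart level and those past 4-fold against the list's direction, both genes of each pair of forms, and heart-high genes with a genotype call. B2m, C1qc, Cpe, Alb, Col1a2, Corin, Dbh, Dcp2, Fabp4, Gapdh, Gata4, Hand2, Hk2, Hopx, Mb, Myh7b, Nebl, Nkx2-5, Nppa, Npr3, Pdlim5, Pln, Pnlip, Rpn2, Tbx5, Tnnc1, Ttn, Xirp1, Xrn1 and mt-Nd6 lie outside that rule or were added to it after their values were seen. Sequences were read from RefSeq tables of GRCm38.p6 by gene symbol. Alternatives covered the filter, the pseudocount, the scaling, the summary of the other tables, each table left out, the genotype means and the thresholds.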

Additional observations from a re-analysis of the deposited data

How the results depend on the processing

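The number of genes at least 4-fold higher in heart, 962, became 297 against the highest of the other tables, 616 against their mean, 2153 at 2-fold and 361 at 10-fold. The number at least 4-fold lower, 2404, became 8823 against the highest, 5002 against the mean, 6411 at 2-fold, 617 at 10-fold and 1208 with a pseudocount of 1 ppm. Leaving out any of the other tables, the other filters and scalings, and the means of either genotype kept both counts within 1.5 times. Rescaling by the median of ratios gave 1330 higher and 1632 lower, and leaving the 50 highest genes of each table out of its sum gave 1126 and 2114. These 2 scalings moved the median of all genes by 0.40 and 0.17 on the log2 scale.

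Of 588 recomputed list medians, 29 changed sign, 4 of them for lists whose median lay past 4-fold. Against the highest other table, those of the channel, skeletal muscle and erythroid lists became -0.37, -0.89 and -2.91, and the erythroid one became -1.01 against the mean. The medians of all genes were -1.99 against the highest and -1.07 against the mean, so a change of sign alone does not place a list below all genes. Of these 4 list medians, only the -2.91 of the erythroid list lay below that of all genes. The cytosolic ribosome median, 0.0050, turned negative under 5 alternatives, so it has no direction against 0. Under each of these 5 it stayed above the median of all genes. The margin was narrowest against the highest other table, with -1.95 for the list and -1.99 for all genes. Of 1918 recomputed ratios of named genes, 38 changed sign, 9 of them for genes past 4-fold. Against the highest other table, the log2 ratio was -0.55 for Cidea, -0.46 for Gja1, -2.69 for Hba-a1, -0.48 for Myh7b, -0.75 for Npr3, -1.02 for Oxct1 and -1.82 for Pkm. Against the mean, it was -0.79 for Hba-a1 and -0.0027 for Pkm. The construction of these alternatives shows the cause, since at least 1 other table stood above heart for each of these genes.

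Among heart-high genes, the 4 calls higher in Ftsj1_DF hearts became 0 for genes at least 10-fold over the median and 1 for genes 4-fold over the highest table. The 20 calls lower in Ftsj1_DF hearts became 6 at an adjusted p of 0.01, 34 at 0.1, 2 for genes at least 10-fold over the median and 0 for genes 4-fold over the highest table. By DESeq2 at an unadjusted p under 0.05, 7 of 358 tested genes of the 10-fold set were higher and 20 lower. Of 296 tested in the set over the highest table, 6 were higher and 5 lower. Among all tested genes, 4.76% were higher and 5.87% lower. The 20 of 358 lie near the share of all genes, and the other counts lie below theirs. Both sets hold fewer genes by construction, with 358 and 296 tested. Their shares of calls lower in Ftsj1_DF hearts were also smaller than the 2.11% of all heart-high genes. No paired analysis was possible because the tables give no values per library. Without library counts, sampling error of low genes cannot be separated from the spread between mice, and no single heart library could be left out.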

Other observations

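Of the 17758 genes, 1.10% stood at least 4-fold under the lowest of the other tables. The examples here were taken from the 20 with the largest such difference. Abat, which breaks down the transmitter GABA, had 1.59 ppm in heart and 41.7, 39.0, 36.9 and 40.8 in the other tables, even among the other 4. Faah, the hydrolase of fatty acid amides, had 1.51 ppm in heart and 175, 81.2, 90.9 and 28.8 in the other tables. Cbs, which starts the conversion of homocysteine to cysteine, had 3.48 ppm in heart and 862, 316, 64.7 and 36.8 in the other tables. Stxbp2, a protein of granule secretion, had 1.19 ppm in heart and 21.8, 65.7, 14.1 and 32.8 in the other tables, and Tcf3, a basic helix-loop-helix factor, had 2.02 ppm in heart and 32.7, 30.4, 26.7 and 17.8 in the other tables. The approximate SE of their log2 ratios to the median lay between 0.28 and 0.48. All 4 values in a row stand for the brain-named, kidney, liver-named and spleen tables.

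Some genes high in heart belong to no list of heart muscle and were chosen after their values were seen. Hand2os1, a long non-coding RNA transcribed beside Hand2, had 630.2 ppm in heart and 16.7, 8.52, 3.96 and 7.22 in the other tables. Mov10l1, an RNA helicase known from the germ line, had 55.0 ppm in heart and 0.323, 0.474, 0.641 and 0.536 in the other tables, a log2 ratio of 6.51 ± 0.24 (SE). Olfr1183, an odorant receptor gene, had 29.8 ppm in heart and 0.10, 0.105, 0.105 and 0.186 in the other tables, a log2 ratio of 7.19 ± 0.47. Scgb3a1, a secretoglobin of airway epithelium, had 27.4 ppm in heart and 0.464, 0.382, 1.04 and 0.252 in the other tables and the widest SE of these genes, 0.92. Dbh, the enzyme that makes noradrenaline in sympathetic nerves and adrenal medulla, had 13.5 ppm in heart and 0.0916, 1.03, 2.53 and 0.0946 in the other tables. Whether these values come from heart muscle, other cells of the organ or the assignment of reads was not tested.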
